A study of Macrobrachium nipponense with 6 samples.

Results

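The miR-263 family was examined on microRNA arrays of Macrobrachium nipponense, the oriental river prawn, which is a decapod crustacean of fresh water. Its members were chosen by name: every probe called miR-263 after the species prefix, with or without a letter or arm. No measured value enters that rule, although the family was picked out when earlier results of these arrays were known. There were 31 such probes among the 2546 miRNA probes of each array, 13 named miR-263a and 18 named miR-263b. The tested samples came from prawns held for 24 h in hypoxic water at 2.0 ± 0.1 mg O2 per L, and the others from prawns held in normoxic water at 6.5 ± 0.2 mg O2 per L. Each oxygen level had 3 samples, called hypoxia 1 to 3 and normoxia 1 to 3, and each sample was 1 array. Muscle, gill, hemocytes and hepatopancreas were mixed within every sample, and each value is therefore an average across tissues. In such samples fewer cells of a type and less RNA per cell cannot be told apart. Separate animals behind the samples are not stated in the labels, and the p-values rest on the spread between these samples, which may be technical.

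MicroRNAs are short RNAs cut from a hairpin, which has a 5p arm and a 3p arm, and each arm can give a mature miRNA. The seed, bases 2 to 8 of the mature RNA, is the main stretch that pairs with target messengers. In Drosophila, miR-263a and miR-263b protect the cells of sensory bristles from programmed cell death by repressing the pro-apoptotic gene hid. The miR-183, miR-96 and miR-182 group of vertebrates, known from hair cells and photoreceptors, is regarded as related to them. The probes were designed on other arthropods, so the prefixes name species: ame is the honeybee, api the pea aphid, bmo the silkworm, dpu the water flea Daphnia pulex (a crustacean), tur a spider mite, nvi a parasitoid wasp, isc a tick, tca the flour beetle, aae and aga mosquitoes, and dan and dme fruit flies. The sources used here do not give the prawn's own miR-263 sequences.

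The target sequences below are shown because they mark what separates the forms, and because later results are set out by these differences. They are printed 5′ to 3′ as the arrays list them, with the seed in capitals.
bmo-miR-263a-5p: aAUGGCACuggaagaauucac
dme-miR-263a-5p: aAUGGCACuggaagaauucacggg
api-miR-263a: aAUGGCACugaaagaauucacggg
ame-miR-263a: gUAAAUGGcacuggaagaauucac
ame-miR-263b: cUUGGCACuggaagaauucac
nvi-miR-263b: uUGGCACUggaagaauucac
dpu-miR-263b: cUUGGCACuggaagaauucaca
api-miR-263b: cUUGGCACuggaagaauucacaga
dme-miR-263b-5p: cUUGGCACugggagaauucac
bmo-miR-263a-3p: cGUGAUCUcuuaguggcaucac

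The 5p targets of the miR-263a and miR-263b probes were alike in sequence, and the pair given next was chosen for its closeness. The targets bmo-miR-263a-5p and ame-miR-263b, both 21 bases long, shared 19 bases and differed by A1C and A2U, counted from the 5′ end of the first-named. Of the 19 probes that entered the comparison below, 5 carried the seed AUGGCAC and all 5 were miR-263a. The seed UUGGCAC was carried by 8 probes, all miR-263b, and it differs from AUGGCAC in its first base. The remaining 6 had shifted or altered starts. The 2 nvi-miR-263b probes began 1 base later and had the seed UGGCACU. The stretch GGCACUG stood in 20 of the 21 probes of the 5p arm, in 0 of the 10 of the 3p arm and in 3 of the 2515 other miRNA probes (0.119%). The arm was read from the name for 19 probes. The 12 whose name gives none were called 5p because their target holds GGCACUG, so these carry it by definition. No probe outside the family came closer than 6 edits to any of the 19. Whether a probe of 1 form also bound the other form was not tested.

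Nearly all readings above the detection limit came from the 5p arm. Detection here means a reading above local background by more than 3 times the standard deviation of the empty spots. By that limit 17 of the 31 probes were detected on all 6 arrays, 6 on 1 to 5 arrays and 8 on none. Of all 2546 miRNA probes, 292 were detected on all 6 arrays. The 17 of the family all belonged to the 5p arm. Hypoxia 1 to 3 detected 20, 20 and 17 of the 31, against 20, 23 and 19 on normoxia 1 to 3, while all probes detected numbered 420 to 908 on the hypoxia arrays and 342 to 1001 on the normoxia arrays. The single 5p probe without GGCACUG, dpu-mir-263b-p5_1ss18GA, passed the limit on normoxia 2 only. Of the 60 readings of the 10 probes of the 3p arm, 2 passed the limit, aae-miR-263b-3p and tca-miR-263b-3p, both on normoxia 2. The 3p readings ranged from -21.7 to 79.2 intensity units above background, with a median of 9.54. On the 5p arm, dme-miR-263a-5p read 1064, 604 and 1437 units above background on hypoxia 1 to 3, against 710, 1384 and 1163 on normoxia 1 to 3. These unscaled readings also carry the brightness of each array. The limit itself was 73.2, 27.8 and 77.0 units on hypoxia 1 to 3 and 35.6, 67.6 and 94.5 on normoxia 1 to 3. A 3p probe named for another species may differ from the prawn's own passenger strand, so no level of that strand can be read from these values.

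The comparison between oxygen levels asked whether 24 h of hypoxia went with other levels of the family. It was made on log2 intensities after background correction and quantile normalization. A single fit, hypoxia minus normoxia, took in the 339 probes that either group detected on each of its 3 arrays (limma, with Benjamini-Hochberg adjustment over all 339). These included 19 miR-263 probes, 8 miR-263a and 11 miR-263b, all of the 5p arm. Of the 19, 0 passed the adjusted threshold of 0.05, as did 0 of all 339 (0%), and 1 had an unadjusted p under 0.05, beside 15 of 339 (4.42%). The adjusted p of the 19 lay between 0.870 and 1.00. Fitted changes were below 0 for 17 of the 19, with a median of -0.23 (log2), beside 57.8% and a median of -0.09 over all 339. The 17 include aae-miR-263b-5p and dme-miR-263b-5p, each detected on 2 hypoxia arrays and all 3 normoxia arrays. They entered through normoxia alone, and such a filter favours lower values in hypoxia. Among probes detected on all 6 arrays, 15 of 17 changes of the family lay below 0, beside 58.9% of 292. Since most of the 19 targets differ by a few bases, they are not 19 separate measurements. The half-width of the 95% interval had a median of 0.94 over these probes.

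The probe api-miR-263b had the lowest change of the family. It read 8.90, 9.02 and 9.15 (log2) on hypoxia 1 to 3, against 9.42, 9.63 and 9.83 on normoxia 1 to 3. Its groups did not overlap, with every hypoxia array below every normoxia array. This was the only tested miR-263 probe of which that was true, 1 of 19. Of all 339 tested probes, 34 (10.0%) had groups that did not overlap, and in 6.19% hypoxia was the lower group. Its means were 9.02 ± 0.12 in hypoxia and 9.63 ± 0.21 in normoxia (SD, n = 3 each), a change of -0.60 with a 95% interval of -1.17 to -0.04. The change did not pass (limma, unadjusted p = 0.0395, adjusted p = 0.870).

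Among the miR-263a probes, ame-miR-263a was the brightest of its form, by the mean over the 6 arrays. To 2 decimals dme-miR-263a-5p had the same mean, 10.15. It read 9.63, 9.26 and 11.16 on hypoxia 1 to 3, against 10.25, 10.09 and 10.52 on normoxia 1 to 3. Hypoxia 1 and 2 thus lay below every normoxia array and hypoxia 3 above every one. Its change was -0.27 (95% interval -1.55 to 1.01; limma, adjusted p = 0.949). The silkworm probe bmo-miR-263a-5p showed the same split, at 9.42, 9.69 and 10.98 in hypoxia against 10.06, 9.90 and 10.51 in normoxia. The probe dme-miR-263a-5p, at 9.50, 9.99 and 10.87 in hypoxia against 10.16, 9.98 and 10.43 in normoxia, had the change nearest 0 of this form, -0.07.

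The other miR-263a probes had hypoxia 1 as their lowest array. The lowest changes were those of the fruit fly and mosquito probes with 3 extra bases at the start. For dan-miR-263a the values were 9.35, 9.57 and 9.90 in hypoxia against 9.74, 9.93 and 10.56 in normoxia, a change of -0.47. For aga-miR-263a they were 9.32, 9.62 and 10.03 in hypoxia against 9.76, 10.06 and 10.47 in normoxia, a change of -0.44. In both, unlike ame-miR-263a, hypoxia 3 did not exceed every normoxia array. The mite probe tur-miR-263a-5p read 9.39, 9.86 and 10.66 in hypoxia against 10.03, 10.03 and 10.50 in normoxia. The tick probe isc-miR-263a_R+2, 1 base shorter than dme-miR-263a-5p, changed by -0.20, beside -0.21 for tur-miR-263a-5p. The aphid probe api-miR-263a differs from dme-miR-263a-5p by G11A. It ranged from 8.50 to 9.32 in hypoxia, against 8.98 to 9.36 in normoxia, a change of -0.27.

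The brightest probe of the other form, nvi-miR-263b, read 9.45, 9.88 and 11.08 on hypoxia 1 to 3, against 10.15, 9.94 and 10.46 on normoxia 1 to 3. Its change was -0.05 (95% interval -1.17 to 1.07; limma, adjusted p = 0.998). The crustacean probe dpu-miR-263b read 9.30, 9.91 and 10.82 in hypoxia against 10.22, 9.94 and 10.35 in normoxia, a change of -0.16. In both probes hypoxia 3 was the highest of the 6 arrays and hypoxia 1 the lowest.

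Other miR-263b probes are longer or shorter at the 3′ end. The probe nvi-miR-263b_R+3, with 3 more bases than nvi-miR-263b at its end, read 9.12, 9.68 and 10.29 in hypoxia against 9.87, 9.96 and 10.22 in normoxia, a change of -0.32. For tur-miR-263b-5p the values were 9.36, 9.66 and 10.09 in hypoxia against 9.54, 10.09 and 10.29 in normoxia, a change of -0.27. Its shortened form tur-miR-263b-5p_R-5 read 8.98, 9.55 and 9.54 in hypoxia against 9.72, 9.30 and 9.72 in normoxia, a change of -0.23. In each of these 3 probes the groups overlapped and hypoxia 1 was the lowest array. The probe ame-miR-263b_R+3_1ss2TG, 1 base from api-miR-263b, ranged from 9.08 to 9.93 in hypoxia, against 9.66 to 10.03 in normoxia, a change of -0.30.

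The changes above 0 were those of dan-miR-263b_R+4_1ss12GA at 0.57 and ame-miR-263b at 0.05, and both probes were lowest on normoxia 2. The probe dan-miR-263b_R+4_1ss12GA was at 9.02, 9.50 and 9.91 on hypoxia 1 to 3, against 9.63, 7.15 and 9.94 on normoxia 1 to 3. The probe ame-miR-263b was at 9.42, 9.16 and 11.17 on hypoxia 1 to 3, against 10.27, 8.67 and 10.64 on normoxia 1 to 3. Without normoxia 2 their changes were -0.31 and -0.54, and 19 of 19 changes lay below 0, beside 58.4% of all 339. Without hypoxia 3, on which ame-miR-263b was highest, its change was -0.57, while that of dan-miR-263b_R+4_1ss12GA was 0.35. The low readings were also in the authors' processed values, where dan-miR-263b_R+4_1ss12GA stood at 477, 617 and 781 on hypoxia 1 to 3, against 680, 59.2 and 979 on normoxia 1 to 3.

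The 3 hypoxia arrays stood apart from each other. Hypoxia 1 lay below every normoxia array for 15 of the 19 probes, where 39.5% of all 339 tested probes did so. Hypoxia 2 did so for 12 (33.3% of all), and for those same 12 both arrays did (20.9% of all). Neither hypoxia 1 nor hypoxia 2 lay above every normoxia array for any of the 19 (0 probes), where 22.7% and 24.5% of all did. Hypoxia 3 lay above every normoxia array for 9 of the 19 (37.2% of all) and below every one for 3 (35.7% of all). For miR-263a, the median over its 8 probes was 9.37, 9.66 and 10.68 on hypoxia 1 to 3, against 9.97, 9.99 and 10.48 on normoxia 1 to 3. For miR-263b, the median over 11 probes was 9.08, 9.52 and 9.93 in hypoxia, against 9.66, 9.63 and 10.03 in normoxia. Quantile normalization set the median of all tested probes at 10.16 to 10.17 on every array, so these shifts are relative to the other probes. The median change of the 19 was -0.56 without hypoxia 3, -0.04 without hypoxia 1 and -0.11 without normoxia 3. Over all 339 tested probes it was -0.18, -0.03 and -0.11, in the same order. Without hypoxia 1, 11 of the 19 changes lay below 0, beside 51.6% of all 339.

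How miR-263a moved relative to miR-263b was measured within each array, since levels of different probes cannot be set against each other. The difference between the brightest probe of each form, ame-miR-263a minus nvi-miR-263b, was 0.18, -0.62 and 0.09 (log2) on hypoxia 1 to 3. On normoxia 1 to 3 it was 0.10, 0.15 and 0.07. Hypoxia 2 alone lay apart. The pair rests on a near tie, since dme-miR-263a-5p had the same mean as ame-miR-263a to 2 decimals. Its change was -0.07, beside -0.27 for ame-miR-263a and -0.05 for nvi-miR-263b. The test was not run with dme-miR-263a-5p in place of ame-miR-263a. The means were -0.12 ± 0.44 in hypoxia and 0.11 ± 0.04 in normoxia (SD, n = 3 each). They differed by -0.22, with an exact two-sided permutation p of 0.8, where 3 against 3 cannot go below 0.1. Without hypoxia 2 the difference was 0.03, and taken between the medians of all tested probes of each form it was 0.02. The nearest pair in sequence, bmo-miR-263a-5p minus ame-miR-263b, gave 0.01, 0.54 and -0.19 in hypoxia against -0.21, 1.23 and -0.14 in normoxia. The value of 1.23 includes the low reading of ame-miR-263b on normoxia 2. With 3 arrays a group the test could not have passed at 0.05, and equal behaviour of the forms is not shown.

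Over the 6 arrays Pearson's r had a median of 0.852 among the 28 pairs of miR-263a probes, with a range of 0.588 to 0.987. Among the 88 pairs with 1 probe of each form the median was 0.699 and the range -0.662 to 0.994. Among the 55 pairs of miR-263b probes the median was 0.444 and the range -0.706 to 0.989. These probes share arrays and near-identical targets, so the values are a description.

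Some miR-263b probes had another base inside the target. The probe dme-miR-263b-5p differs from ame-miR-263b by A12G, counted from the 5′ end. The same G is in aae-miR-263b-5p, which also has 2 bases after UUCAC. These were the dimmest tested miR-263 probes, with means of 7.71 and 8.01 (log2) over the 6 arrays. Whether the base or the low signal bears on their pattern was not tested. The probe dme-miR-263b-5p read 8.16, 8.10 and 6.65 on hypoxia 1 to 3, against 6.92, 7.99 and 8.43 on normoxia 1 to 3. For aae-miR-263b-5p the values were 8.23, 8.19 and 7.18 in hypoxia against 7.84, 8.20 and 8.42 in normoxia. Both were lowest on hypoxia 3, the array on which ame-miR-263b, nvi-miR-263b and dpu-miR-263b were highest, and neither was detected there. A further probe with this G, aae-miR-263b-5p_1ss1CG, was detected on 4 arrays and did not enter the comparison. It read 7.62, 7.65 and 6.81 in hypoxia against 7.05, 6.84 and 7.34 in normoxia. The arrays also carry calibration probes, and the mean signal of the 3M kind was 10.8%, 7.14% and 1.22% that of the 3P kind on hypoxia 1 to 3, against 2.58%, 3.73% and 1.87% on normoxia 1 to 3. The meaning of 3M and 3P is stated in none of the files. This ratio was highest on hypoxia 1 and 2 and lowest on hypoxia 3. Among the normoxia arrays it was lowest on normoxia 3, where dme-miR-263b-5p and aae-miR-263b-5p read highest. Its part in the readings was not tested.

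How far a probe stood out on hypoxia 3 varied among the 19, and is given here by target in groups formed after the values were seen. Hypoxia 3 minus the mean of hypoxia 1 and 2 had a median of 0.66 (log2) over the 19 probes and 0.09 over all 339. It was 1.41 to 1.88 for bmo-miR-263a-5p, ame-miR-263b and nvi-miR-263b, which end at UUCAC and have no extra bases at the start. The A12G probe dme-miR-263b-5p has that same end and start, and gave -1.48. Of the 4 miR-263a probes with 1 to 3 G after UUCAC, dme-miR-263a-5p, isc-miR-263a_R+2 and tur-miR-263a-5p gave 1.04 to 1.22. The other was api-miR-263a, which has the GGG end of dme-miR-263a-5p and gave 0.65 where dme-miR-263a-5p gave 1.12. The 6 miR-263b probes with 1 to 4 bases after it gave 0.18 to 1.22, lowest in api-miR-263b and highest in dpu-miR-263b with its single added A. The probe tur-miR-263b-5p_R-5, which is 5 bases shorter than tur-miR-263b-5p, gave 0.27. The 3 probes with 3 extra bases at the start all end at UUCAC, and ame-miR-263a gave 1.71, aga-miR-263a 0.56 and dan-miR-263a 0.44. The other tested probe with the G of dme-miR-263b-5p, aae-miR-263b-5p, gave -1.03. Probes with the same end thus differed widely, as did api-miR-263b at 0.18 and ame-miR-263b_R+3_1ss2TG at 0.63, which both end in AGA.

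Other miRNAs were read from lists. The sense organ and nervous system list (miR-7, miR-9, miR-79, miR-124, miR-279 and miR-996 of insects) had 28 tested probes of 101 on the array. Of these, 19 lay above 0 and 9 below, beside 57.8% below 0 over all 339, and 0 passed. The median change was 0.34 (log2). The list's median level was 10.64, 10.52 and 8.87 on hypoxia 1 to 3, against 9.39, 9.46 and 9.18 on normoxia 1 to 3, so hypoxia 1 and 2 lay above every normoxia array and hypoxia 3 below every one. Its tested probes were 12 of miR-9, 9 of miR-279, 4 of miR-79 and 3 of miR-7, with none of miR-124 or miR-996. The brightest miR-9 probe, tca-miR-9a-5p, of a family known from bristle development in flies, averaged 12.10 ± 0.03 in hypoxia and 11.70 ± 0.16 in normoxia (SD, n = 3 each, limma adjusted p = 0.870). Its change was 0.40. The brightest probes of the other stems changed by 0.49 (bmo-miR-79-3p), 0.01 (aae-miR-7_R+1) and -0.12 (bmo-miR-279a_R+3_1ss17CT). The list of fly miRNAs that, like miR-263, repress pro-apoptotic genes (bantam, miR-2, miR-6, miR-11, miR-13, miR-14 and miR-308) had 40 tested probes of 108, of which 33 were miR-2, 4 bantam and 3 miR-13, with none of the other members tested. There 18 lay above 0 and 22 below, 0 passed, and the median was -0.07. Its ame-bantam, a repressor of hid in flies, averaged 13.25 ± 0.18 in hypoxia and 13.31 ± 0.33 in normoxia (SD, n = 3 each; limma, adjusted p = 0.965). The relatives miR-183, miR-96, miR-182 and miR-228 had 4 probes on the array and 0 tested.

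Tissue markers were read from the same fit to see whether markers of muscle or nerve moved with miR-263. The muscle list (miR-1, miR-133 and miR-206) had 5 tested probes of 15, with medians of 12.85, 11.98 and 12.41 on hypoxia 1 to 3, against 12.85, 12.13 and 10.96 on normoxia 1 to 3. The nervous tissue list (miR-124, miR-9, miR-7 and miR-137) had 15 tested of 65, with medians of 10.66, 10.60 and 9.98 in hypoxia against 9.73, 10.54 and 9.86 in normoxia. Of the defining markers, miR-124, miR-137 and miR-206 had no tested probe. The tested probes of the nervous tissue list, 12 of miR-9 and 3 of miR-7, were also in the sense organ list. Nervous tissue is not among the tissues named as mixed, and gill, hemocytes and hepatopancreas had no list. The part of the tissue mix in the miR-263 values was not tested.

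The tested probes outside the family whose level followed ame-miR-263a most closely over the 6 arrays were ame-miR-252a (r = 0.958), dpu-miR-965 (r = 0.949) and the butterfly probe hme-let-7 (r = 0.948). For nvi-miR-263b they were aae-miR-7_R+1 (r = 0.978), tur-miR-10-5p (r = 0.970) and api-miR-281 (r = 0.964). With 320 tested probes to choose from and 6 arrays, such values are a description of these arrays. The changes of these 6 probes lay between -0.21 and 0.09 (log2).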

How the data were processed

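Total RNA was labelled with Cy3 and hybridised to 1-colour LC Sciences arrays, per the labels. Scanner tables as deposited give each spot a median intensity, linear and without background subtraction, per the file headers and the values of the 1130 empty spots. A further deposited table, of intensity after background subtraction and scaling by the authors (method not given in the sources used here), served as an alternative, as log2 of the value plus 50. From the scanner intensities, the median of the 20 nearest empty spots was taken as background and corrected with normexp (offset 50). The offset pulls changes of dim probes towards 0. Control spots were left out, and arrays were quantile normalized and put on the log2 scale. Probes detected on all 3 arrays of a group were tested with limma 3.58.1 in R 4.3.3 (lmFit and eBayes), and the forms with an exact permutation test in scipy 1.17.1. The limma fit was tested only on simulated data with less spread than these arrays, which does not show its power here. The number of arrays limits precision. Columns of samples outside this series numbered 0.

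The members and lists were chosen with earlier results of these data known. The rule used names only, no measured value. All tested miR-263 probes were named or given by range; probes most alike were the 3 with the highest r, 1 per stem. Alternatives covered background, scaling, filtering, the spread model, array weights, the replicate block, single arrays and detection limits. The brightest probes were kept fixed in all of them.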

Additional observations from a re-analysis of the deposited data

Results flagged for a closer look

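Calibration probes lie outside the miRNA comparison. The 3M kind had a mean signal of 10.8% that of the 3P kind on hypoxia 1, and of 7.14% on hypoxia 2. Both lay above the highest normoxia array, at 3.73%. Hypoxia 3 stood at 1.22%. On the first 2 arrays the miR-263b probes with the A12G change read higher than on hypoxia 3, and most other miR-263 probes read lower. The normoxia arrays did not follow that order. Normoxia 3 had their lowest ratio, 1.87%, and dme-miR-263b-5p and aae-miR-263b-5p read highest there, at 8.43 and 8.42 (log2). Whether the ratio bears on these readings was not tested.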

How the results depend on the processing

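Under all 21 alternatives of the fit, 0 miR-263 probes passed (limma), and leaving out single arrays also gave 0. Without hypoxia 3 the smallest adjusted p of the family was 0.167, and with array weights it was 0.127 (limma). Low p-values were then more frequent over the whole array. Of all 339, 63 without hypoxia 3 and 72 with array weights had an unadjusted p under 0.05 (limma), beside 15 in the main fit. Without hypoxia 3, 1 probe outside the family passed. The number entering the test was 18 to 20 under other detection limits. The median change was -0.23, but -0.08 after cyclic loess, where 13 of 19 lay below 0, beside 52.5% of all 339. It was -0.15 with 75th percentile scaling, -0.12 in the authors' values and -0.41 with array weights. Over all 339 the median under these 4 alternatives was -0.01, -0.05, -0.03 and -0.11, in the same order. The change of api-miR-263b stayed between -0.76 and -0.50 in all 21. Signs turned in 25 of 396 values of single probes, and the cause was not tested. After cyclic loess aae-miR-263b-5p was at 0.03, dme-miR-263a-5p at 0.01, dme-miR-263b-5p at 0.04 and nvi-miR-263b at 0.05. With array weights ame-miR-263b was at -0.36 and dme-miR-263b-5p at 0.07, and in the authors' values nvi-miR-263b was at 0.0. With single arrays left out, 11 probes changed sign: aae-miR-263b-5p (-0.47 to 0.05), ame-miR-263a (-0.84 to 0.11), ame-miR-263b (-0.57 to 0.45), bmo-miR-263a-5p (-0.60 to 0.18), dme-miR-263a-5p (-0.45 to 0.24), dme-miR-263b-5p (-0.57 to 0.35), tur-miR-263a-5p (-0.56 to 0.08), isc-miR-263a_R+2 (-0.61 to 0.15), dpu-miR-263b (-0.56 to 0.20), nvi-miR-263b (-0.52 to 0.29) and dan-miR-263b_R+4_1ss12GA (-0.31 to 1.08). The difference between the forms, -0.22, ranged from -0.37 to 0.03 with single arrays left out (0.03 without hypoxia 2), and was 0.02 between the medians of each form. With a replicate block it was -0.22 and 0 probes passed. The labels do not say whether same-numbered samples share more than a number. Their deviations correlated at -0.251, -0.273 and -0.0583. Signals near the detection limit, as in the 3p arm, allow no comparison.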
